A study of Mus musculus with 16 samples.

Results

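The DNA-bound RNA (D) of sperm was compared between a high-fat diet (HFD) and a normal diet (ND) in Dnmt2-/- males, using 4 of the 16 libraries of the series, 2 from each diet. Members were chosen by the labels alone, as every D library of a Dnmt2-/- male. Males 1 and 2 had ND and males 3 and 4 had HFD. All 4 were Dnmt2-/- on the C57BL/6 background, so the controls lack Dnmt2 as well, and none of the values below comes from a male with the enzyme. The animals were put on their diet at 4 weeks and were 6 to 8 months old when sperm was taken. The labels describe the HFD as holding 21% or 35% butter and do not say which of these each male received. The paper's captions for the sequenced sperm give 21% butter. The free RNA (F) of the same 4 males was used as a second measure at the positions found in D, and libraries of wild-type males were left aside.

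Dnmt2, whose gene is Trdmt1, is an RNA methyltransferase that adds a methyl group to a cytosine in transfer RNA. The D fraction is the RNA that stays with the genomic DNA and is then released by DNase, while F is the RNA recovered apart from the DNA. The paper describes these fractions for a TRIzol extraction, where F is in the aqueous phase. For the sequenced RNA its methods give digestion with proteinase K and a column kit. RNA that pairs with its DNA template forms a DNA/RNA hybrid, and with the displaced DNA strand it makes an R-loop. DNA with a run of purines (A and G) on one strand and pyrimidines (C and T) on the other is known as a sequence that favours stable hybrids. Tandem repeats of short units, satellite DNA near centromeres, and retrotransposons such as L1 lie mostly outside genes and make up much of the mouse genome.

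What was measured is a list of peaks per library, where a peak is a stretch in which mapped reads pile up over the surrounding sequence. A position that is missing from a list was not called there, which is different from an absence of RNA. The lists held 3427 peaks in male 1, 49918 in male 2, 22726 in male 3 and 21171 in male 4. ND therefore has both the shortest and the longest list, with 14.6 times as many peaks in male 2 as in male 1, and the HFD lists lie between them. Nearly every peak of a list had the same width, which was 249 bases in male 1, 400 in male 2, 189 in male 3 and 190 in male 4. The lowest score was 4.56, 4.51, 14.7 and 14.6 in males 1 to 4, so list length, width and lowest score differ between males beside every result below, and their part in it was not tested. Scores are compared between lists by their percentile rank in their own list, where 100 is the highest peak. The one exception is an alternative that weights peaks by score, given near the end. Of 18 markers of sperm and spermatids, and of 16 of the epididymal epithelium, 0 had a D peak outside introns and intergenic positions, so these marker lists cannot check the labelled cell type here. Such peaks were held by 2 of 11 leukocyte markers, both in male 2, by 1 of 7 erythroid markers, in male 4, and by 0 of 6 liver markers. Trdmt1 itself, the deleted gene, was the nearest gene to 2 peaks, both in male 2, and to 0 peaks in the other males. With 2 males against 2 the smallest two-sided p of an exact permutation test is 0.33, so no comparison of the diets can pass 0.05. Nothing in the labels says that the males came from separate litters or extractions.

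To show what a diet-specific position looks like, in tandem repeats and outside them, 4 regions that lie inside annotated transcripts are printed here, since the reference sequence used held transcripts alone. All are on the plus strand of GRCm38, read from GENCODE M21 transcripts. Capitals mark unbroken runs of at least 10 purines or at least 10 pyrimidines.
HFD-specific, in the transcript model Gm43766, nearest gene Tox4, chr14:52260399-52260598: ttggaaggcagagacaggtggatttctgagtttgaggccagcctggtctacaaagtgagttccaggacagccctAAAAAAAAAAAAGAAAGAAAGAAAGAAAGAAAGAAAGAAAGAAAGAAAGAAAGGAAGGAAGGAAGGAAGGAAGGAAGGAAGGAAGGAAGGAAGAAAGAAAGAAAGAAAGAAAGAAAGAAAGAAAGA
HFD-specific, in Gm42418, nearest gene Rn45s, chr17:39846972-39847166: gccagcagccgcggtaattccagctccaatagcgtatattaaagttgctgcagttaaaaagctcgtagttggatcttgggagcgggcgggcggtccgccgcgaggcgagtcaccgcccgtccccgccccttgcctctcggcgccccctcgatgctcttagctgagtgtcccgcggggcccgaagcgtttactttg
HFD-specific, in Gm10715, nearest gene Mir101c, chr9:3037189-3037386: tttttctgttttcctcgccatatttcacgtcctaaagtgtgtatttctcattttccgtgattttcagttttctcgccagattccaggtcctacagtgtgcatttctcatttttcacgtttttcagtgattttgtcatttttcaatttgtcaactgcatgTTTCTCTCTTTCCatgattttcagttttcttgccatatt
ND-specific, the middle 200 bases of a region in Gm47649, nearest gene Edil3, chr13:87979365-87979564: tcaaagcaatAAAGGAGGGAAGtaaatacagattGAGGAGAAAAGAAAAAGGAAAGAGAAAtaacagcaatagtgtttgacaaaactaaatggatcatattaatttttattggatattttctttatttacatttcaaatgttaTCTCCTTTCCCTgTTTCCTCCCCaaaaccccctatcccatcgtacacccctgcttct
In the Gm43766 region the longest run holds 126 purines, a stretch of GAAA and GGAA units. The pre-ribosomal region in Gm42418 has 0 such runs, and its first letters are a conserved stretch of the small-subunit ribosomal RNA. The Gm10715 region belongs to the major satellite, the repeat of mouse pericentromeric DNA, and its longest run is 13. For scale, 3 GAAA units in a row, on either strand, stand in 0.14% of 32851 RefSeq promoter windows of 200 bases, 3 GAA units in 0.58%, and a run of at least 40 purines or pyrimidines in 0.32%. Promoters are not a sample of intergenic DNA, so these shares only describe how such letters are spread near genes.

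The first question was whether males of one diet share positions in D that males of the other diet lack. Peaks of the 4 lists that share at least 1 base were joined into 87998 regions. HFD-specific regions, which hold a peak of males 3 and 4 and none of males 1 and 2, numbered 814, or 0.925% of all regions. ND-specific regions numbered 185, or 0.210%. Most regions, 80503, belonged to 1 list, and 43428 of these were of male 2. Regions with peaks in males of both diets were more frequent than diet-specific ones: 2621 were held by males 2 and 3 alone, 2237 by males 2 and 4 alone, and 1103 by males 2, 3 and 4. All 4 lists shared 254 regions. The counts rest on single males: with male 2 left out 1917 regions were HFD-specific, and with male 1 left out 850.

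**Figure D1:**
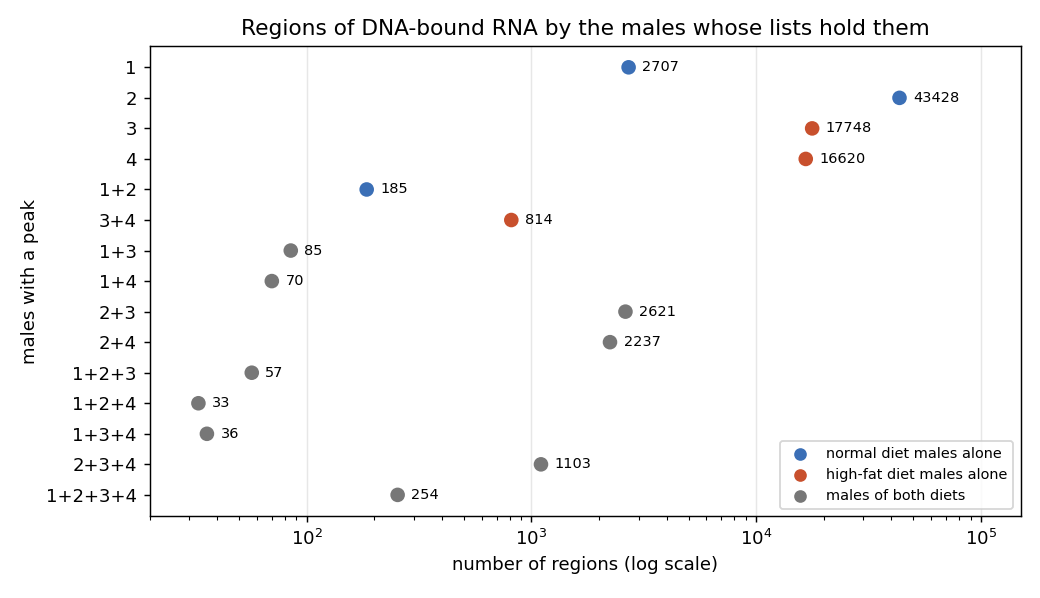
Number of regions (log scale) for each set of males whose D lists hold a peak there; blue points are held by ND males alone, red points by HFD males alone and grey points by males of both diets. The HFD pair alone (3+4) has 814 regions and the ND pair alone (1+2) has 185, while male 2 shares 2621 and 2237 regions with male 3 alone and with male 4 alone.

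Pairs of lists were then compared with the Jaccard index, the regions shared by both as a percent of the regions in either. The HFD pair reached 5.30% and the ND pair 1.00%. Across the diets, male 2 reached 5.88% with male 3 and 5.38% with male 4, and male 1 reached 1.68% and 1.62%. The mean within diets was 3.15% and the mean between diets 3.64%, a difference of -0.49 points (exact permutation test, two-sided, p = 0.33, n = 2 males per diet). With 50% of both peaks required to overlap, the difference was 1.605 points. A full peak of male 2 cannot meet that rule against an HFD peak, so this setting cannot decide the direction. With every peak set to 200 bases the difference was -0.374 points. Males 3 and 4 had 2207 regions in common, 9.72% of male 3 and 10.4% of male 4, whereas male 2 held 17.8% of the regions of male 3 and 17.1% of those of male 4.

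When each list was cut to its 3427 highest peaks, the length of the shortest list, the HFD-specific regions came down to 80 and the ND-specific ones to 43. The pairs of different diets lay on both sides of these counts, with 111 regions held by males 2 and 3 alone, 82 by males 2 and 4, 46 by males 1 and 3, and 19 by males 1 and 4. At this length the HFD pair shared 8.29% of each list, males 2 and 3 shared 9.31%, and males 2 and 4 shared 8.35%. The ND pair shared 6.30%, males 1 and 3 shared 6.39%, and males 1 and 4 shared 5.49%. With males 2, 3 and 4 cut to 21171 peaks each, the HFD pair shared 2029 regions (9.58% of a list), males 2 and 3 shared 1905 (8.998%) and males 2 and 4 shared 1821 (8.60%). After every peak of these 3 lists was also set to 200 bases, the shares were 9.50%, 8.46% and 8.00%, with the HFD pair highest both times. One pair of one diet gives no spread for this difference, and it was not tested.

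The distance to the nearest peak of the other diet was then taken. The nearest ND peak lay within 1000 bases of 90 HFD-specific regions and within 10000 bases of 336, with a median gap of 13977 bases. It belonged to male 1 for 46 of the 814 regions. Of the ND-specific regions 7 had an HFD peak within 1000 bases and 59 within 10000, with a median gap of 18180 bases.

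The positions shared by both HFD males alone were mostly short tandem repeats outside exons. Of the 814 regions 524 were intergenic, 264 intronic, 10 at promoters and 3 at transcript ends, and 11 on unplaced scaffolds had no annotation. Simple repeats covered 429 of them and low-complexity sequence 115, while 69 lay in LINEs, 28 in LTR elements and 24 in SINEs, and 136 in no repeat. Repeats whose unit combines A with G alone, or C with T alone, counted with the stretches annotated as GA-rich, CT-rich, polypurine or polypyrimidine, were grouped after their values had been seen. They made up 478 of the 814 regions, 58.7% (Wilson 95% interval 55.3% to 62.1%, counting error only). The most frequent names were (GAAA)n with 102 regions, its complement (TTTC)n with 74, (GAA)n with 44 and (TTC)n with 38. Of the ND-specific regions 49 of 185 were of this kind, 26.5% (20.7% to 33.3%), and (TG)n and GA-rich led their names with 9 regions each.

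This makeup was shared with other sets of males. Regions held by 1 ND and 1 HFD male had purine or pyrimidine repeats in 40.4% (39.1% to 41.8%) of 5013 cases, from 31.4% for males 1 and 4 to 54.1% for males 1 and 3. Regions of males 2, 3 and 4 reached 63.7%, and those of males 1, 2 and 3 reached 63.2%. Regions of a single list had them in 12.8%, and all regions in 15.6%. The HFD-specific share lay above that of the 4 pairs of different diets, although the interval for males 1 and 3 (43.6% to 64.3%) included it, and below that of the 4 sets of 3 males. These intervals count regions of the same libraries as separate draws. They give no spread between males and cannot decide whether the sets of males differ. In the lists cut to equal length, 47 of the 80 HFD-specific regions (58.8%) and 17 of the 43 ND-specific ones (39.5%) were purine or pyrimidine repeats, against 56.8% for males 2 and 3 alone.

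**Figure D2:**
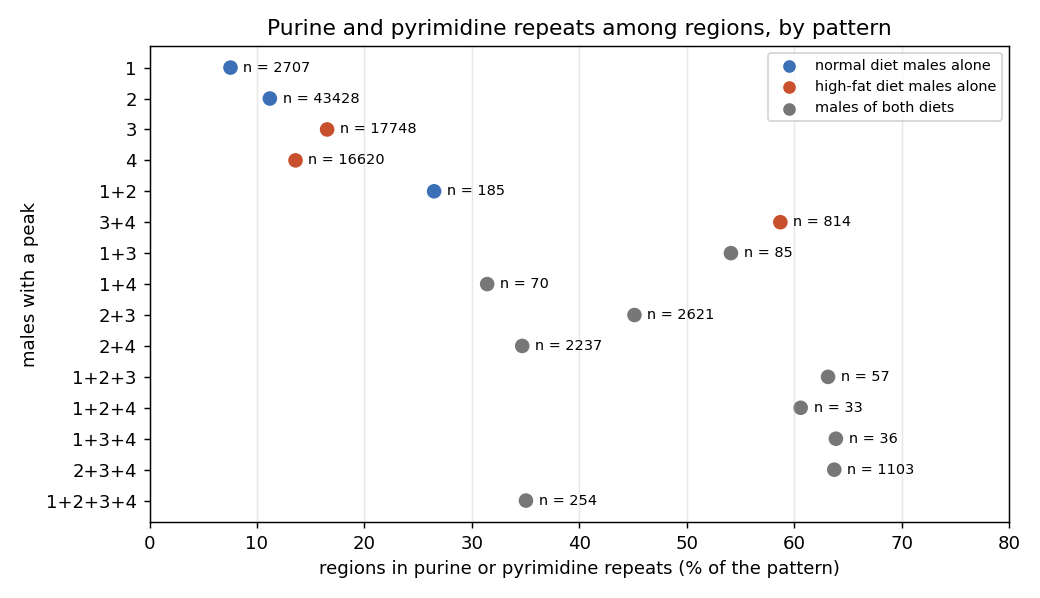
Share of regions in purine or pyrimidine repeats (percent, horizontal axis) for each set of males with a D peak, with the number of regions beside each point; colours as the diets of the males. Sets of 3 males lie between 60.6% and 63.9%, the HFD pair alone is at 58.7%, the ND pair alone at 26.5%, and single males lie between 7.54% and 16.5%.

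The highest HFD-specific region lay in the 45S pre-ribosomal RNA gene Rn45s, which encodes the precursor of the large and small ribosomal RNAs, and is printed above. Its scores were 51573.1 in male 3 and 53108.3 in male 4, both at percentile 99.98. ND peaks were close by, the nearest 390 bases away in male 1, and a second Rn45s region was held by all 4 males with scores of 605803.1, 19902.9, 170431.6 and 208134.0 in males 1 to 4. The gene was therefore covered in all 4 males, and the HFD-specific call describes one position in it.

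The second in rank lay on an unplaced scaffold, at percentiles 99.84 and 99.82, 273 bases from a peak of male 2. Of the 10 highest HFD-specific regions 5 were copies of the major satellite repeat GSAT_MM on chromosome 9, between 3001328 and 3037386 (mm10), with Mir101c as nearest gene. The first of them scored 1875.2 in male 3 and 2295.3 in male 4, and the last, printed above, 556.7 and 995.9. The block was not empty in ND males: peaks nearest to Mir101c numbered 4 in male 1, 9 in male 2, 15 in male 3 and 14 in male 4. The gaps from these 5 regions to the nearest ND peak ran from 348 to 1937 bases. With the second in rank, 4 of the 10 lay on unplaced scaffolds, 3 of them on a single one that held 7 HFD-specific regions in all. That scaffold had 2, 21, 27 and 29 peaks in males 1 to 4. Copies of satellite and ribosomal DNA are near-identical, so reads may be placed on any one of them, and single positions among them are uncertain.

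Over all 814 HFD-specific regions the median of the mean percentile was 44.5, and 26 regions, among them those in ribosomal and satellite DNA and on scaffolds named above, were over 90. An intron in Abcb1a, which encodes the drug efflux pump P-glycoprotein, held a region at percentiles 96.61 and 98.46 in males 3 and 4, and the nearest ND peak was 56550 bases away. Ccl28, a chemokine of mucosal epithelia, was the nearest gene to 2 HFD-specific regions in introns, at mean percentiles of 96.46 and 95.34. These lay at -24888 and -23445 bases from its start, and the nearest peaks of male 2 were 2891 and 1458 bases away. A region near Pgr, the progesterone receptor gene, in a LINE, stood at 95.95 and 95.43. Abcb1a and Pgr were named after their values were seen, from the 20 highest regions.

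The highest ND-specific region covered the start of Mir6236 on chromosome 9, 110281126 to 110281525. Its score was 25470.2 in male 1 and 37.7 in male 2, at percentiles 99.18 and 98.96, and the nearest HFD peak was 31212 bases away. Some ribosomal repeat copies held by all 4 males had like scores in males 1 and 2. These were 28431.2 and 33.5 near Apbb1ip, and 41479.1 and 30.3 near Sspn. The source of the reads in the Mir6236 region was not tested. The mature microRNA in this region is given with its seed, bases 2 to 8, in capitals, from RefSeq on GRCm38.
mmu-miR-6236, chr9:110281353-110281371, plus strand: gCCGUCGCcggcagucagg
It was the single mature microRNA of the RefSeq table found inside a diet-specific region on the chromosomes searched. The search did not cover every chromosome, and diet-specific regions outside it were not checked for microRNAs. No other ND-specific region reached percentile 97 in the mean of both males. Those next in rank were a satellite copy (IMPB_01) upstream of Atxn10, at 95.91 and 96.73, and an intron of Nrxn3, a synaptic adhesion gene, at 88.62 and 98.99. Other introns of Nrxn3 held 2 HFD-specific regions. The remaining 7 of the 10 highest lay near AY702102, Zfp608, Hapln1, Ms4a6d, Kif20b, Spanxn4 and Trim62, at mean percentiles from 92.82 down to 87.37. Around Trim62, which encodes a ubiquitin ligase, males 1 and 2 had 1 and 5 peaks and the HFD males 0.

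By nearest gene, 731 of 16392 genes (4.46%) had an HFD-specific region and 179 (1.09%) an ND-specific one, and 61 and 6 of them had more than 1. After Mir101c with 5 regions came Cdh20, a cadherin, and Sorcs1, a sorting receptor, with 4 each. The counts of peaks in males 1 to 4 were 1, 48, 27 and 27 for Cdh20, and 3, 56, 37 and 29 for Sorcs1. Next with 3 regions each were Gm2516, 2610316D01Rik, and Gm20806 and Gm20871 on the Y chromosome, where many genes have near-identical copies. Ccl28, 5730507C01Rik and Adarb2 had 2 each. The 6 genes with 2 ND-specific regions were 1700019E08Rik, Tmem114, Wwox, Ercc4, Csmd1 and Cadm2. Cadm2, a synaptic adhesion gene, also had 2 HFD-specific regions, and 1 of these lay 517 bases from an ND-specific one.

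Peaks at genes proper were few. Genes with a peak outside introns and intergenic positions numbered 134, 1116, 599 and 538 in males 1 to 4, 2158 in all. By this measure 22 genes (1.02%) were HFD-specific and 14 (0.649%) were ND-specific. The peaks overlapped between the males in 14 of the 22 and in 5 of the 14, and in the rest they lay at different positions of the gene. Of the HFD-specific genes 12 also had an intronic or intergenic peak in an ND male. Exon and UTR peaks alone left 3 HFD-specific genes and 1 ND-specific gene.

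The HFD-specific gene highest in rank was Pspc1, a paraspeckle component, at 93.06 in male 3 and 94.61 in male 4, but with the peak at the promoter in one and at the transcript end in the other. Adora2a, an adenosine receptor, stood at 87.78 and 84.99, at the end of the gene. The zinc finger gene Zfp108 had promoter peaks at 84.48 and 81.06, with 0 peaks of any kind in the ND males. Ifi211 and Ifi203, both interferon-inducible, had promoter peaks at 98.39 and 63.04 and at 57.64 and 73.47 in males 3 and 4. Ifnk, the gene of interferon kappa, had one at 43.56 and 89.97. The nearest ND peak was 474 bases away for Ifi211, 27899 for Ifi203 and 83579 for Ifnk. The other members of the 10 were the olfactory receptor gene Olfr214, Dnmt3l, a cofactor of DNA methylation in germ cells, Reep1, which shapes the endoplasmic reticulum, and Kcnc1, a potassium channel gene. Dnmt3l had 1 peak in each HFD male, at 64.16 in male 3 and 73.47 in male 4, at different positions, and 0 in the ND males.

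Among ND-specific genes Ms4a6d, a membrane protein gene of macrophages, followed Mir6236 with 81.66 in male 1 and 98.33 in male 2. Npm2, a histone chaperone of the egg, had 54.46 and 80.25, and male 3 also had 1 intronic or intergenic peak. Lipf, the gastric lipase gene, and Tap2, a peptide transporter of antigen presentation, had peaks at different positions in the ND males and 0 in the HFD males. The rest of the 10 were D930016D06Rik, 2510039O18Rik, Myo3a, Prr5l and Cd101, with mean percentiles between 43.41 and 72.31. In both diets the 2 males of a gene often differed widely in rank, as for the HFD-specific gene Brk1 (5.31 in male 3 and 98.73 in male 4).

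Members of gene lists are counted here by nearest gene, out of those nearest to at least 1 D peak. Of genes of insulin and glucose, 1 of 37 had an HFD-specific region, in an intron of another transcript near Pdx1, the transcription factor of the pancreas, at percentiles 71.13 and 61.02. ND-specific regions lay near 2 of the 37, in an intron of Insr, the insulin receptor gene, and 459666 bases from the start of Ppargc1a, a coactivator of energy metabolism. Of genes of obesity and appetite 3 of 31 had an HFD-specific region. Fto, a gene linked to body mass in humans, had 2 regions in an intron, both in (TCC)n repeats, at mean percentiles of 67.25 and 21.19, with the nearest ND peak 68910 bases or more away. The other members were Cadm2 and Mc3r, a melanocortin receptor gene, and Cadm2 was also the 1 member with an ND-specific region. Of genes of lipid synthesis and use 1 of 30 had one, Acaca, which encodes acetyl-CoA carboxylase, at 12.56 and 21.30 in an intron. Among genes of cytosine methylation 2 of 13 did, the RNA methyltransferase genes Nsun3 and Nsun7, both with intergenic repeat regions, that of Nsun3 512205 bases from its start.

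Beside the background of 4.46% and 1.09%, these are counts of 1 to 3 genes per list. The list of long neuronal genes held the most members, with 11 of 39 for HFD and 5 of 39 for ND. HFD-specific regions lay in or near Cntnap5b (mean percentile 86.12), Ctnna3 (53.39), Cntn5 (52.54) and Cntnap5a (50.23), among others, and the nearest ND peaks were 182 bases away at Cntnap5b and 82 at Ctnna3. There were ND-specific ones in or near Nrxn3, Csmd1, Wwox and Dpp10, of which Wwox, a gene at a fragile site, is not neuronal. The median number of D peaks per gene was 49 in this list and 3 over all nearest genes, and the part of gene length in these counts was not tested. Of the lists of R-loop and RNA processing and of the germ cell small RNA pathway, 0 of 16 and 0 of 18 members had a diet-specific region. The same was so for 0 of 10 epididymal, 0 of 9 leukocyte, 0 of 3 erythroid and 0 of 5 liver markers, and of 8 sperm markers Zpbp had 1, ND-specific and intronic.

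Next, the lists were compared by what their peaks fall on. Intergenic peaks made up 60.9%, 64.7%, 63.6% and 63.9% of annotated peaks in males 1 to 4, or 62.8% ± 2.65 in ND and 63.8% ± 0.269 in HFD (SD, n = 2 each). Intronic peaks made up 34.1% ± 1.51 and 33.6% ± 0.197. For both classes the ND males lay on either side of the HFD males (p = 1.0, exact permutation test). Promoter peaks were 1.46% and 0.924% in males 1 and 2 and 0.891% and 0.881% in males 3 and 4, lower in both HFD males by a margin smaller than the ND spread.

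Simple repeats took a larger share in both HFD lists. They made up 17.5% and 18.1% of peaks in the ND males and 24.1% and 21.0% in the HFD males, a difference of 4.74 points, where the SD was 0.456 in ND and 2.22 in HFD (exact permutation p = 0.33, the smallest possible, and 1.0 after Benjamini-Hochberg adjustment over 16 classes). With lists cut to equal length they stood at 17.5%, 27.5%, 26.5% and 19.4% in males 1 to 4, so the diets overlapped and the difference was 0.487 points. LTR elements were lower in both HFD males, with 7.47% and 9.09% in ND against 7.40% and 7.22%. At equal length they overlapped (7.47%, 7.16%, 6.41% and 7.27% in males 1 to 4), and the difference of -0.97 points became -0.15 without male 2. LINEs (18.6%, 18.8%, 18.1% and 20.9% in males 1 to 4), SINEs (4.98%, 3.32%, 4.73% and 4.499%) and satellites (0.820%, 1.09%, 0.737% and 0.852%) overlapped between the diets. At equal length LINEs stood at 18.6%, 14.7%, 20.3% and 22.6% in males 1 to 4, higher in both HFD males by 4.778 points (exact permutation p = 0.33, the smallest possible). Ribosomal RNA repeats were 2.05% in male 1 and at most 0.161% in the other 3 males.

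Purine and pyrimidine repeats, low-complexity stretches of that kind included, were higher in both HFD lists. Their share was 14.96% and 15.3% in males 1 and 2 and 24.8% and 21.0% in males 3 and 4, a difference of 7.76 points, with an SD of 0.269 in ND and 2.65 in HFD (exact permutation p = 0.33, the smallest possible). All other simple repeats went the other way, with 5.15% and 7.78% in ND against 4.07% and 4.46% in HFD, but at equal length the diets overlapped (5.15%, 16.7%, 5.80% and 5.80% in males 1 to 4). By unit, GAAA or TTTC was at 3.92% and 2.85% in ND and at 7.03% and 5.14% in HFD. GAA or TTC was at 1.43% and 1.36% against 3.32% and 3.03%, and GA or TC at 1.64% and 1.93% against 2.53% and 2.32%. In each of these the 2 diets did not overlap. The mixed unit TG or CA was at 1.76%, 4.31%, 1.94% and 2.01% in males 1 to 4, with male 2 alone apart.

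In the lists cut to 3427 peaks, purine and pyrimidine repeats stood at 14.96%, 18.5%, 26.0% and 17.99% in males 1 to 4, so that male 4 fell within the ND males and the diets overlapped. The trinucleotide GAA or TTC (1.43%, 1.07%, 3.88% and 2.56%) and the tetranucleotide GAAA or TTTC (3.92%, 4.41%, 8.59% and 5.39%) remained higher in both HFD males. In free RNA of the same males purine and pyrimidine repeats were a small part of the peaks, 1.84%, 7.66%, 6.13% and 5.22% in males 1 to 4, and there the HFD males lay between the ND males.

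**Figure D3:**
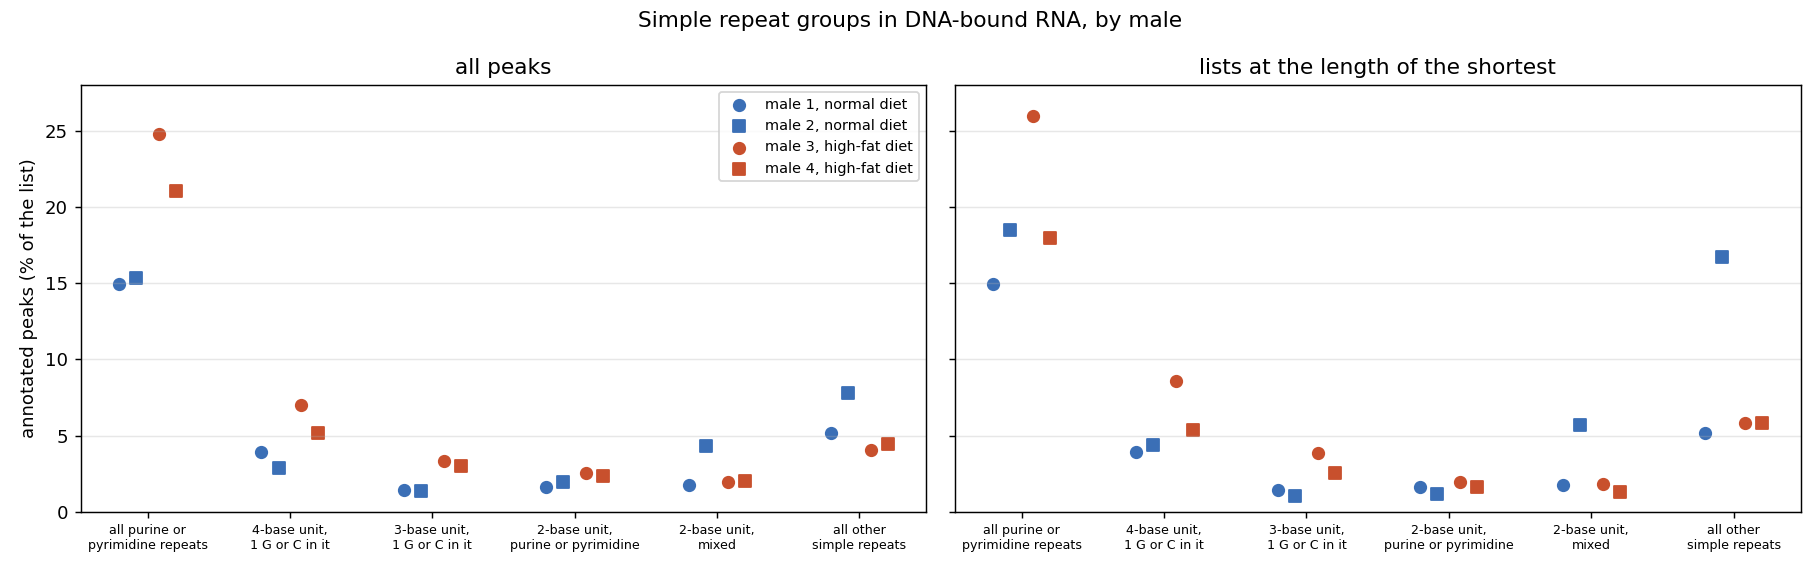
Share of annotated D peaks (percent of the list) in groups of simple repeats for each male, with all peaks (left) and with every list cut to 3427 peaks (right); circles and squares are single males, blue for ND and red for HFD, and the units with 1 G or C are GAAA or TTTC and GAA or TTC. Both HFD males lie above both ND males for all purine or pyrimidine repeats on the left (24.8% and 21.0% against 14.96% and 15.3%), and on the right male 4 (17.99%) lies below male 2 (18.5%).

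Of 145 repeat names with at least 50 peaks, 37 (25.5%) had a higher share in both HFD males than in both ND males, and 20 (13.8%) a lower one. The 145 included 35 simple repeats, and 29 purine or pyrimidine names when low-complexity ones of that kind are counted. All 17 simple repeats among the 37 were purine or pyrimidine repeats, and 0 simple repeats were lower. Among the 37, the 5 names with the largest ratio of mean shares were MTA_Mm, an LTR element, at 2.85, then (TTC)n at 2.55, L1VL2 at 2.12, the old SINE family MIR at 2.08 and (GAA)n at 2.05. MTA_Mm, L1VL2 and MIR rest on 0 or 1 peak in male 1, whereas (TTC)n had 20, 325, 382 and 311 peaks in males 1 to 4 and (GAA)n had 29, 350, 370 and 328. LINE names went both ways, with 10 higher and 13 lower of 43, SINE names had 7 higher and 0 lower of 18, and LTR names had 1 higher and 7 lower of 34. Among names whose diets did not overlap, the lowest ratios were those of the LTR elements MTC (0.359), RMER12C (0.402) and RLTR20A4 (0.479) and of the old LINEs L1MA6 (0.491) and L2 (0.525).

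The LINE names that were higher in both HFD males included L1Md_T, L1Md_F2 and L1Md_F3 of the young mouse L1 families, named here after their values were seen. L1Md_F2 had 72, 731, 574 and 638 peaks in males 1 to 4, or 2.11%, 1.47%, 2.53% and 3.02% of the lists. L1Md_A, another young family, overlapped between the diets (0.351%, 0.133%, 0.309% and 0.412%). Young L1 copies are near-identical, so the placement of reads among them is uncertain.

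**Figure D4:**
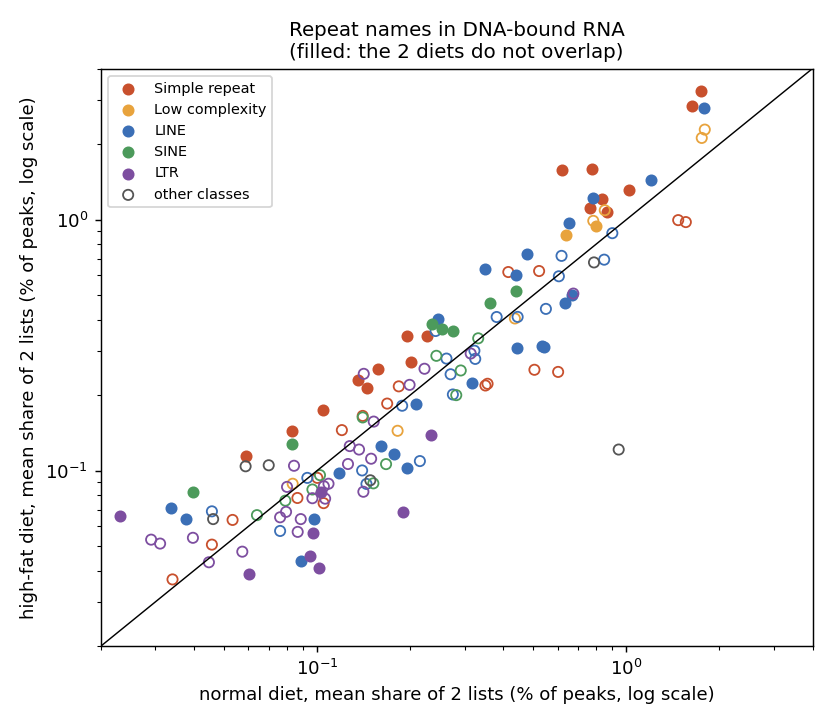
Mean share of peaks in the ND lists (horizontal, percent, log scale) and in the HFD lists (vertical, percent, log scale) for 145 repeat names with at least 50 peaks, coloured by class, with the line of equality. Filled points are names whose 2 diets do not overlap, 37 above the line and 20 below it; every filled simple repeat lies above it.

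Regions in all 4 lists allow the ranks to be compared at the same position. Of the 254, 33 (13.0%) had a higher percentile rank in both HFD males than in both ND males and 10 (3.94%) a lower one. The median rank of these regions was 48.1 in male 1, 99.4 in male 2, 98.6 in male 3 and 98.0 in male 4, so that male 1 stood apart from the other 3. The largest difference was at a (GGAGA)n repeat in an intron near Prr15l, at percentiles 2.54, 3.12, 83.60 and 66.87 in males 1 to 4. A poly(A) stretch near Gm10745 was at 44.63, 23.17, 99.40 and 97.83. Repeat regions near B3gat1, Sema5b and Matn1 followed, with differences of 60.14, 57.10 and 54.86 points. Purine or pyrimidine repeats made up 21 of the 33 and 5 of the 10, against 89 of the 254 (35.0%). Ribosomal RNA repeats made up 6 of the 33, with differences of only 0.02 to 1.12 points, and 2 of the 10. The median difference was 30.96 points among the 33 and -36.7 among the 10.

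The regions lower in HFD were led by a (TTC)n repeat near Prr16, at 79.68, 89.41, 36.21 and 27.24 in males 1 to 4. Next were T-rich sequence near Rarb, a retinoic acid receptor gene (64.33, 87.19, 33.60 and 24.30), and repeats near Rnf115, Gnb1l and Mmel1, with differences of -45.43, -45.36 and -39.75 points. When ranks were taken among the 254 regions alone, 38 were higher and 34 lower, so the surplus of higher ranks was not kept. Without ribosomal, satellite, simple and low-complexity repeats 32 regions remained in all 4 lists, 1 higher and 1 lower.

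**Figure D5:**
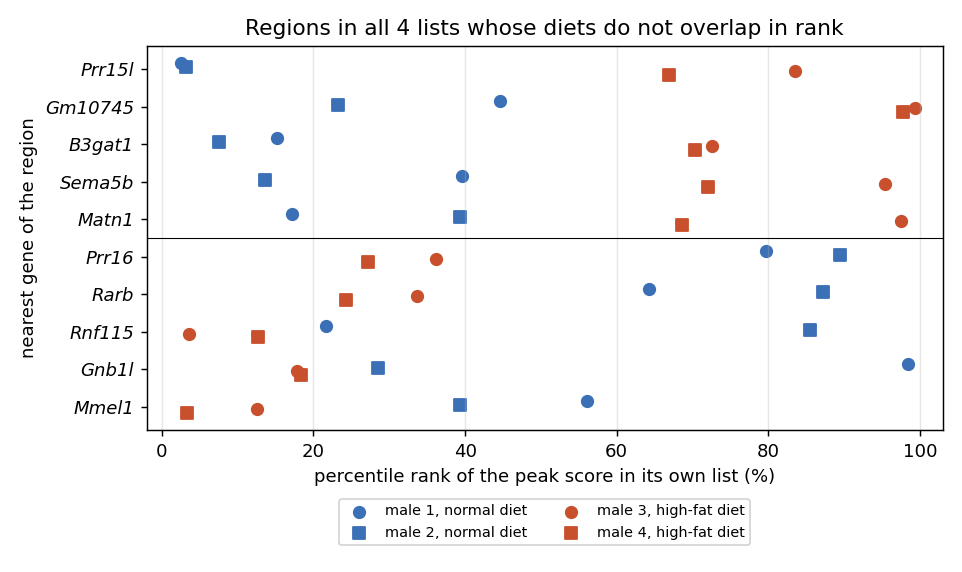
Percentile rank of the peak in its own list (horizontal axis, percent) for the 5 regions with the largest difference in each direction among those in all 4 lists whose diets do not overlap, by nearest gene; blue symbols are ND males and red symbols HFD males. Near Prr15l the ND males are at 2.54 and 3.12 and the HFD males at 83.60 and 66.87, and near Prr16 they are at 79.68 and 89.41 against 36.21 and 27.24.

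The transcripts that the study names were not diet-specific in D by this measure, apart from the Rn45s position described above and a single region near Lars2. Lars2, the mitochondrial leucyl-tRNA synthetase gene, had 0, 2, 2 and 1 peaks in males 1 to 4, and a (GA)n region at -12987 bases from its start was HFD-specific, at 80.26 in male 3 and 9.84 in male 4. AY036118, Gm42418, Gm26917 and Rn18s-rs5 were the nearest gene of 0 peaks in every list, where the annotation gives Rn45s at the ribosomal locus. A further ND-specific region assigned to Rn45s lay at -55020 bases from its start in a LINE, at percentiles of 10.85 and 3.12.

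Finally, the diet-specific D positions were looked up in the free RNA of the same males, which the rule had not used. Of the 814 HFD-specific regions, 12, 26, 25 and 26 overlapped an F peak of males 1 to 4, or 1.47%, 3.19%, 3.07% and 3.19%. The mean was 2.33% ± 1.22 in ND and 3.13% ± 0.0869 in HFD (SD, n = 2), and the diets overlapped (p = 1.0, exact permutation test). Of the 185 ND-specific regions 3, 4, 6 and 12 overlapped an F peak, which is 1.62%, 2.16%, 3.24% and 6.49%, higher in both HFD males (p = 0.33, exact permutation test). The difference of 2.97 points was 1.35 without male 4 and 4.59 without male 3. The F lists held 25406, 7635, 10143 and 18709 peaks in males 1 to 4. For comparison, the 5013 D regions held by 1 ND and 1 HFD male overlapped F peaks of males 1 to 4 in 1.36%, 3.43%, 3.01% and 6.82% of cases. D regions of a single list did so in 0.555% to 3.32%, and the 254 regions in all 4 D lists in 30.3% to 49.6%. In 744 of the 814 and 165 of the 185 no F list had a peak. An HFD-specific D region that also had F peaks in males 3 and 4 and none in males 1 and 2 was found 2 times, in an intron of Ahi1 and on an unplaced scaffold, and 0 ND-specific regions had F peaks in males 1 and 2 alone.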

How the data were processed

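Sperm RNA of 4 Dnmt2-/- males was sequenced as D and F. Per the study's methods, the authors removed adapters with cutadapt, trimmed with Trimmomatic 0.36, and mapped reads to GRCm38 using Hisat2. HOMER 4.9 gave one peak list for each library, against the local background. They annotated peaks against mm10. Salmon is named but gives no value here. The deposited peak score has no stated unit and was compared by rank within a list, apart from an alternative that weighted peaks by score. All peaks carry the plus strand, so strand is unknown. Reads outside peaks and library depth are not in the lists, so no depth limit could be given.

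Regions were made in Python 3.11.15 with pandas 2.3.3, numpy 2.4.6 and scipy 1.17.1 (plots with matplotlib 3.10.9), and the steps were tested on simulated lists and against bedtools 2.31.1. A region took the annotation of its member peak with the highest rank. Shares use annotated peaks (11 to 110 per list had none). Exact permutation tests run over 6 assignments of males to diets. Genes are HOMER's nearest genes. Named items follow a rule: the 10 highest diet-specific regions and genes, the 10 genes with most such regions, up to 4 members per gene list, 5 repeat names and 5 shared regions in each direction, and the transcripts the study names. Members, lists and alternatives were chosen with earlier results of these data known. 0 columns of values were left unused. Alternatives changed overlap, width, list length, score threshold, distance, repeats, weighting and the males included.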

Additional observations from a re-analysis of the deposited data

How the results depend on the processing

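Counts of diet-specific regions followed list length and the definition of a shared position. An HFD peak can cover at most 47.5% of a full peak of male 2. With 50% of both peaks shared, HFD-specific regions numbered 1505 and the Jaccard difference became 1.605 points. With lists cut to the shortest they were 80 for HFD and 43 for ND, in the upper 50% of each list 266 and 72, and without ribosomal, satellite, simple and low-complexity repeats 230 and 85. With no peak of the other diet within 10000 bases 478 HFD-specific regions were left. Leaving out each male in turn gave 850 to 18562 HFD-specific and 218 to 43613 ND-specific regions. Weighting peaks by score turned the differences of the intergenic share (-17.85 points), the intron share (25.022) and the LTR share (1.542). The highest peak alone held 15.78%, 52.05%, 36.79% and 31.95% of the summed score in males 1 to 4, so these weighted values rest on few peaks. Without those repeats the differences were 0.348 for introns and 3.12 for LINEs. At equal length SINEs differed by -0.359 and satellites by 0.114 points. Leaving out males gave differences of -0.918 to 2.833 for intergenic, -1.537 to 0.598 for intron, -0.604 to 2.183 for LINE, -0.364 to 1.294 for SINE and -1.905 to 0.092 for ribosomal repeat shares, each with a change of sign. For purine and pyrimidine repeats they ran from 5.878 to 9.632, and for free RNA at HFD-specific regions from -0.061 to 1.659. Regions in all 4 lists with ranks that did not overlap numbered 2 without repeats and 72 when ranked among themselves, with 1 higher in HFD without repeats, and 3 (50% overlap), 1 (without repeats) and 34 (own ranks) lower. Exon and UTR peaks alone gave 3 HFD-specific and 1 ND-specific genes, and any peak by nearest gene 481 and 208. The cause of these changes was not tested. Alternatives for purine repeats, for the lists of males 2, 3 and 4 and for males left out of the free RNA comparison were chosen after seeing the data. No paired analysis was possible because the males of the 2 diets are different animals.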

Other observations

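Sex chromosomes took unequal shares of the D lists. The X chromosome held 3.74%, 1.46%, 3.48% and 3.22% of peaks in males 1 to 4, lowest in male 2. The Y chromosome held 0.554% and 0.250% in the ND males and 0.752% and 0.647% in the HFD males, from 19, 125, 171 and 137 peaks, and 10 HFD-specific and 1 ND-specific regions lay there. Y-linked sequence is rich in near-identical copies. Of autosomes 1 to 19, chromosome 10 had a higher share in both HFD males, chromosomes 5, 9, 11, 14 and 18 had a lower one, and all others overlapped. The differences were small: chromosome 10 held 5.165% and 5.213% in ND against 5.786% and 5.399% in HFD. Chromosome 11 held 4.873% and 4.758% against 4.581% and 4.638%. These differences were not tested.

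Peaks within 1000 bases of a start site made up 2.20%, 1.53%, 1.56% and 1.51% of the lists of males 1 to 4, and the median distance was between 62299 and 66291 bases. Purine and pyrimidine repeats had a median percentile of 36.4, 47.1, 47.2 and 43.1 in males 1 to 4, in each list below the median of peaks outside repeats (54.5, 51.9, 53.0 and 52.7).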
